A study of Ovis aries with 16 samples.

Results

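*MXI1* and *BHLHE40* are 2 transcriptional repressors that are both known targets of the hypoxia-inducible factors (HIF). They were examined in the livers of 16 fetal sheep, and are 2 of the 26478 genes in the count table and 2 of the 8580 genes with enough reads to be tested. Both were selected on measured values. They stand in the study's own list of differentially expressed genes, which rests on the same comparison of hypoxic with normoxic livers, and they were chosen because they lay on opposite sides between and within the groups. The difference between groups and the relation of the 2 genes to each other are therefore given as a description, without a *P* value. The count table holds identifiers only, and the study's list pairs *MXI1* with ENSOARG00020015085 and *BHLHE40* with ENSOARG00020012417.

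Liver RNA came from singleton fetuses of Welsh Mountain ewes, collected at about day 130 of gestation per the labels (the study's methods give a later day). The 9 CON fetuses (5 male, 4 female) were carried in normoxia, and the 7 HOX fetuses (3 male, 4 female) by ewes housed in hypoxia for about 30 days. Each liver is 1 library and 1 animal, so the replicates are biological. The hypoxia was imposed on the ewe, and the whole liver was sampled, so all values are averages over its cell types. Total counts ranged from 24065959 to 29353692 reads in CON and from 23955166 to 33952503 in HOX. One liver stood apart from the rest before any gene was considered. On the first principal component, which held 25.6% of the variance of the tested genes, HOX animal 1 lay at 64.4 and the other 15 livers between -15.6 and 6.23. Results that lean on this liver are given with and without it.

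HIF is a pair of transcription factor subunits whose alpha chain is destroyed when oxygen is plentiful and accumulates when it is scarce. MXI1 is a basic helix-loop-helix leucine zipper protein of the MXD family. It binds MAX, the obligate partner of MYC, occupies the same E-box elements as MYC and recruits the SIN3 corepressor, and thereby opposes MYC-driven growth and ribosome production. BHLHE40 (also called DEC1 or STRA13) is a basic helix-loop-helix Orange protein that represses E-box genes, among them those of the circadian clock, and can bind the retinoid X receptor. The fetal liver is also a blood-forming organ, so erythroid precursors contribute to its RNA beside hepatocytes.

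*MXI1* ranged from 6.77 CPM (the reads of a gene per TMM-scaled library size) over a median of 14.0 to 20.1 CPM in CON. In HOX it ranged from 12.2 over a median of 21.1 to 29.0 CPM. The groups overlapped, mainly through HOX animal 1, which held the lowest HOX value. Of the 7 HOX livers, 6 lay above the CON mean and 4 above the highest CON liver. No CON liver reached the HOX median. The means were 14.0 ± 3.99 CPM (SD, *n* = 9) in CON and 21.2 ± 5.09 CPM (SD, *n* = 7) in HOX. The log2 fold change was 0.60 (SE 0.195), which is a 1.51-fold higher level in HOX. Without HOX animal 1, the HOX mean was 22.7 ± 3.48 CPM and the log2 fold change 0.70 (SE 0.178).

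*BHLHE40* lay on the other side. It ranged from 49.9 over a median of 94.3 to 119 CPM in CON, and from 46.8 over a median of 62.0 to 107 CPM in HOX. The ranges overlapped almost wholly, since 1 HOX liver was below the lowest CON liver and HOX animal 1 was above the CON mean. The medians were further apart than the ranges, with 8 of the 9 CON livers above the HOX median and 6 of the 7 HOX livers below the CON median. The means were 93.2 ± 21.3 CPM (SD, *n* = 9) in CON and 70.5 ± 22.5 CPM (SD, *n* = 7) in HOX. The log2 fold change was -0.40 (SE 0.190), or 0.756 of the CON level. Without HOX animal 1, the HOX mean was 64.4 ± 17.2 CPM and the log2 fold change -0.53 (SE 0.182). HOX animal 1 had the lowest *MXI1* and the highest *BHLHE40* of its group, so it lay on the CON side for both genes.

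**Figure D1:**
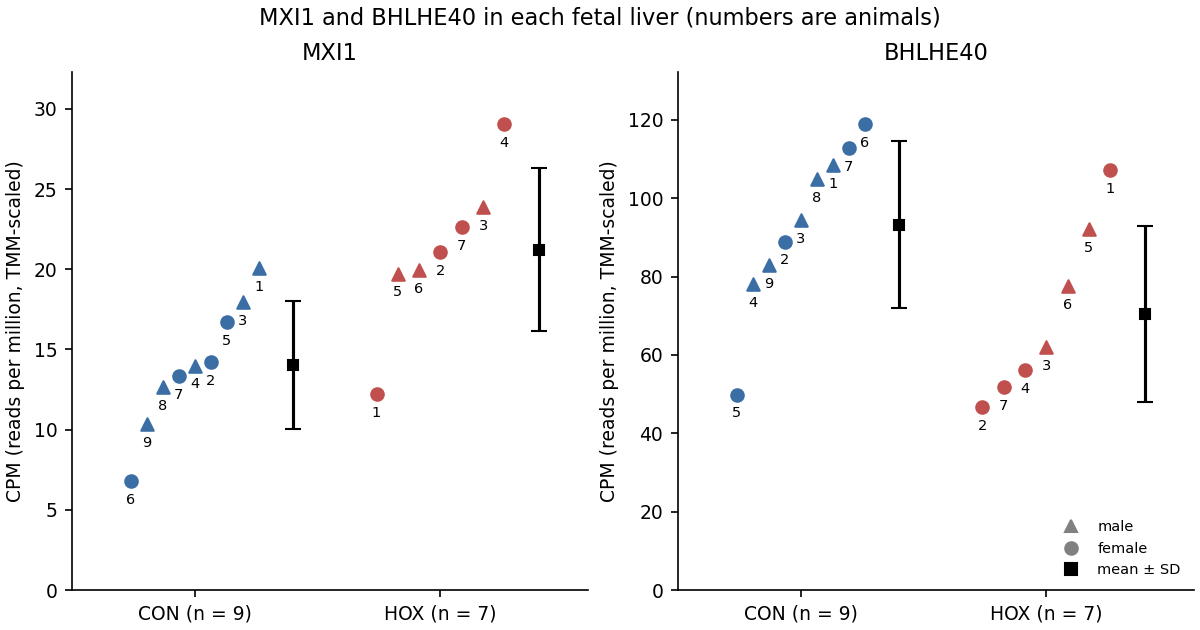
Level of each gene in each liver, in TMM-scaled CPM on an axis from 0, for the 9 CON livers in blue and the 7 HOX livers in red, ordered by value within a group. Triangles are males, circles females, numbers are animals, and black squares with bars are mean ± SD. *MXI1* is mostly higher and *BHLHE40* mostly lower in HOX, and HOX animal 1 is at the CON end of both panels.

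Across all genes, edgeR's quasi-likelihood test called 5 of the 8580 genes (0.0583%) between HOX and CON at an adjusted *P* under 0.15, all 5 lower in HOX. Neither *MXI1* nor *BHLHE40* was among them. DESeq2, the tool of the study, called 237 genes (2.76%), and *MXI1* was among them while *BHLHE40* was not. The study's list at the same threshold holds 487 genes, both repressors among them, so it was not reproduced in full here. The study's read filter kept another number of genes. Without HOX animal 1, DESeq2 called 523 genes (6.16% of 8490 tested), both *MXI1* and *BHLHE40* among them. Because the genes were chosen on this comparison, nothing is read from these calls. At an unadjusted *P* under 0.05, edgeR counted 1022 genes. The median log2 fold change over all tested genes was 0.0054, a value that TMM scaling sets near 0. With any 1 of the 16 livers left out, the log2 fold change stayed between 0.52 (without CON animal 6) and 0.70 (without HOX animal 1) for *MXI1*. For *BHLHE40* it stayed between -0.53 (without HOX animal 1) and -0.32 (without HOX animal 2).

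Both genes varied between livers of the same group more than most genes did. The pooled within-group SD of log2 CPM was 0.431 for *MXI1* and 0.411 for *BHLHE40*, against a median of 0.268 over all tested genes. These SDs exceeded those of 82.6% and 80.4% of the tested genes, respectively. Counting error was small beside this spread. *MXI1* had 159 to 511 reads per CON liver and 419 to 725 per HOX liver, a counting CV of at most 7.93%, against a CV between livers of 28.5% in CON and 24.0% in HOX. *BHLHE40* had at least 1155 reads in every liver, a counting CV of at most 2.94%, against 22.9% in CON and 31.9% in HOX.

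The 2 genes tended to deviate from their group means in opposite directions, most clearly in HOX. In HOX, all 7 livers had 1 gene above and the other below its group mean of log2 CPM. In CON, this was so in 6 of 9 livers. Some of these deviations were near 0, so their signs carry little weight. In *MXI1* they were 0.03, -0.06 and -0.05 in HOX animals 2, 5 and 6, and -0.009 in CON animal 7. How often other pairs of genes do so was not counted. Pearson's *r* between the 2 genes was -0.75 (Spearman's rho -0.68, *n* = 7) in HOX and -0.33 (rho -0.27, *n* = 9) in CON. The libraries share depth and composition across both genes, and these values are a description. In HOX, *r* was -0.47 (rho -0.49, *n* = 6) without HOX animal 1, and -0.58 without the 2 livers farthest from the median of *MXI1*. In CON, CON animal 6 decided the value. It had the lowest *MXI1* of all livers (6.77 CPM) with the highest *BHLHE40* (119 CPM), and without it *r* was -0.048. CON animal 5, with the lowest *BHLHE40* of its group (49.9 CPM), also lowered *r*, which was -0.22 without it. With both of these livers left out, a choice made after their values were seen, *r* in CON was 0.37 (*n* = 7).

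The difference of the 2 genes within a liver, log2 CPM of *BHLHE40* minus that of *MXI1*, shows the same layout. Only its change between livers can be read, because the levels of 2 genes are not comparable without their lengths. It was 2.75 ± 0.69 (SD, range 1.57 to 4.12) in CON and 1.71 ± 0.77 (SD, range 0.95 to 3.13) in HOX, with HOX animal 1 at the upper end of its group. Relative to other genes, the opposition was moderate. Over the deviations from group means in all 16 livers, rho of *MXI1* with *BHLHE40* was -0.51, and 422 genes (4.92%) had a lower rho with *MXI1*. Without HOX animal 1, rho was -0.34 and 1419 genes (16.5%) had a lower one.

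**Figure D2:**
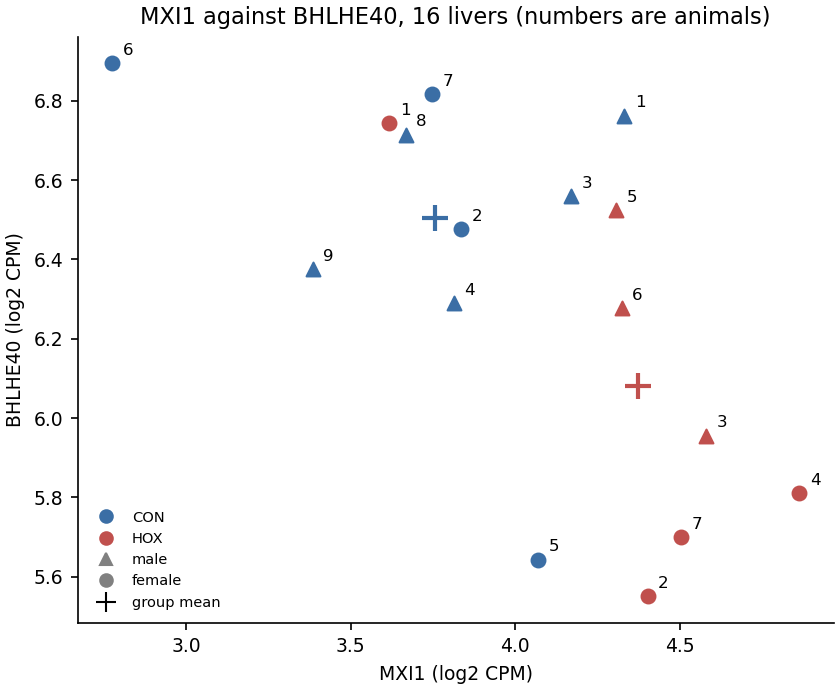
*BHLHE40* against *MXI1* in each of the 16 livers, both in log2 CPM, with CON in blue, HOX in red, triangles for males, circles for females and crosses for group means. The HOX livers run from HOX animal 1 at the upper left to a cluster at the lower right (*r* = -0.75), while the CON livers spread widely (*r* = -0.33) with CON animals 5 and 6 at the edges.

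Fetal sex was not used to choose the genes and could be tested. In CON, *MXI1* was 12.8 ± 4.24 CPM in females and 15.0 ± 3.95 CPM in males, and in HOX it was 21.2 ± 6.94 and 21.2 ± 2.33 CPM. The log2 difference of males from females was 0.13 (95% interval -0.29 to 0.55, edgeR adjusted *P* = 0.986). *BHLHE40* was 92.6 ± 31.3 CPM in CON females and 93.8 ± 13.3 CPM in CON males, and 65.4 ± 28.0 and 77.1 ± 15.0 CPM in HOX. Its log2 difference was 0.11 (95% interval -0.29 to 0.52, edgeR adjusted *P* = 0.987). No sex difference was detected in either gene, and the intervals leave room for differences of about the size of those between HOX and CON. Over all genes, edgeR called 2 of 8580 (0.0233%) between the sexes.

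Whether the response to hypoxia depended on sex was tested as an interaction. The log2 fold change of HOX over CON in *MXI1* was 0.73 (SE 0.287) in females and 0.50 (SE 0.291) in males, and the interaction was -0.23 (95% interval -1.11 to 0.64, edgeR adjusted *P* = 0.999). For *BHLHE40* it was -0.50 (SE 0.276) in females and -0.28 (SE 0.287) in males, and the interaction was 0.22 (95% interval -0.62 to 1.06, edgeR adjusted *P* = 0.999). Each gene thus had the same sign in both sexes, and the intervals of the interaction are wide. edgeR called 0 genes (0%) for the interaction, with 281 genes at an unadjusted *P* under 0.05, and DESeq2 called 6.

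Of a list of 64 HIF target genes, 6 could be found through the study's list and all 6 were tested. All of them were thus listed by the study for a difference on these same livers. *MXI1* and 4 others were higher in HOX and *BHLHE40* was the 1 that was lower. The median log2 fold change was 0.58 (0.62 without *MXI1* and *BHLHE40*), against 0.0054 over all genes. edgeR called 0 of the 6 (0.0583% of all genes) and DESeq2 called 2 (2.76% of all genes). As the genes were listed from this same contrast, nothing is read from these shares.

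*EPOR*, the erythropoietin receptor that erythroid precursors need to survive, was 13.0 ± 6.96 CPM in CON and 24.8 ± 16.3 CPM in HOX (log2 fold change 0.93, SE 0.379). *TFRC*, the transferrin receptor that takes iron into cells, was 88.5 ± 40.9 and 141 ± 64.7 CPM (0.67, SE 0.308). *SLC11A2*, which carries iron out of the endosome, was 11.5 ± 2.79 and 17.0 ± 3.23 CPM (0.57, SE 0.160). These 3 genes of erythropoiesis and iron uptake thus had differences near or above that of *MXI1*. *ZNF395*, a zinc finger factor, had the smallest difference, with 39.8 ± 6.18 CPM in CON and 48.1 ± 13.9 CPM in HOX (0.27, SE 0.170). HOX animal 1 was the lowest HOX liver for *EPOR*, *TFRC* and *ZNF395*, as it was for *MXI1*. Without this liver the log2 fold changes were 1.08 for *EPOR*, 0.81 for *TFRC*, 0.57 for *SLC11A2* and 0.40 for *ZNF395*.

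The relation of these 4 genes to both repressors among livers is a description, with no test. Over the deviations from group means in 16 livers, rho with *MXI1* was 0.76 for *EPOR*, 0.39 for *TFRC*, 0.24 for *ZNF395* and 0.23 for *SLC11A2*. The rho with *BHLHE40* was -0.62 for *EPOR*, -0.46 for *TFRC*, -0.41 for *ZNF395* and -0.26 for *SLC11A2*. The signs with the 2 repressors were thus opposite, and *TFRC*, *ZNF395* and *SLC11A2* had the larger absolute rho with *BHLHE40*. Without HOX animal 1 the signs were the same and the values smaller, with 0.68, 0.24, 0.12 and 0.17 for *EPOR*, *TFRC*, *ZNF395* and *SLC11A2* with *MXI1*. With *BHLHE40* they were then -0.49, -0.38, -0.27 and -0.24 in the same order.

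**Figure D3:**
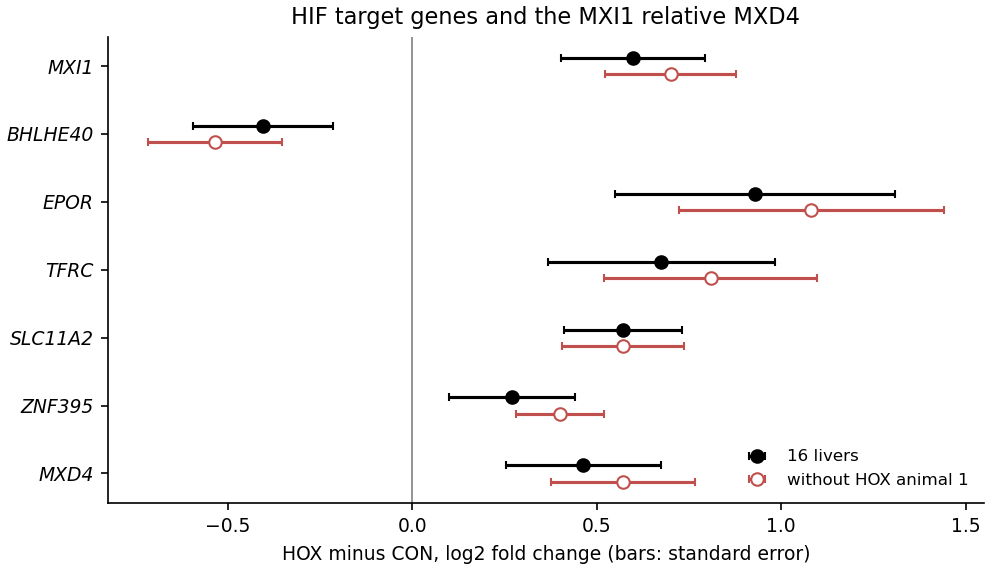
Log2 fold change of HOX over CON, with its standard error as a bar, for the 6 HIF target genes found and for *MXD4*, from all 16 livers (black) and without HOX animal 1 (open red). *BHLHE40* is the only gene left of 0, and leaving out HOX animal 1 moves every gene except *SLC11A2* away from 0.

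The partners of each repressor could be followed only in part. Of 18 genes of the MYC, MAX and MXD network and its corepressors, *MXI1* and *MXD4* were found. *MXD4* encodes another MAX-binding repressor of the family. It was 8.92 ± 2.35 CPM in CON and 12.3 ± 4.09 CPM in HOX (log2 fold change 0.46, SE 0.209), and 0.57 without HOX animal 1, its lowest HOX liver. Its rho was 0.59 with *MXI1* and -0.48 with *BHLHE40*. edgeR called neither of these 2 genes (0.0583% of all genes). Of 23 circadian clock genes only *BHLHE40* was found, so its clock targets were not analysed here. Of 17 nuclear receptors of the liver, *RXRA*, the retinoid X receptor alpha to which BHLHE40 can bind, was found. It was 109 ± 7.44 CPM in CON and 128 ± 10.6 CPM in HOX (0.22, SE 0.0709), and was not called by edgeR.

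Ribosome biogenesis genes are a known MYC-driven programme. Of 32 genes listed, 9 were found and tested. Between groups, 7 were lower and 2 higher in HOX, with a median log2 fold change of -0.16 (-0.34 without HOX animal 1, with 8 lower and 1 higher). edgeR called 0 of the 9 (0.0583% of all genes) and DESeq2 called 2 (2.76% of all genes), and nothing is read from these shares. *TEX10*, a factor of the large subunit, was 13.5 ± 1.82 CPM in CON and 10.9 ± 1.33 CPM in HOX (log2 fold change -0.31, SE 0.110). *URB2*, also of large subunit assembly, went the other way with 9.76 ± 1.30 and 13.4 ± 2.86 CPM (0.45, SE 0.130). The other 7, *NHP2*, *NOP10*, *NOP16*, *IMP4*, *GTPBP4*, *DDX56* and *NOB1*, had log2 fold changes between -0.23 and 0.08.

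HOX animal 1 decided the size of these 7 differences, which ranged from -0.59 to -0.23 without it. *IMP4*, a component of the small subunit processome, was 150 CPM in that liver, against a CON mean of 49.3 ± 9.28 CPM. *GTPBP4*, a GTPase of large subunit assembly, was 177 CPM there against 97.9 ± 18.6 CPM. HOX animal 1 had the highest HOX value for 8 of the 9 genes, where it is the highest HOX liver for 29.9% of all tested genes. Averaged over the 9 genes, log2 CPM was 5.67 in HOX animal 1 and 4.59 to 4.79 in the other HOX livers, against 4.97 ± 0.119 (SD, *n* = 9) in CON. In CON, animal 6 had the highest mean (5.24) and was the highest CON liver for 6 of the 9 genes, where it is so for 18.7% of all tested genes. HOX animal 1 and CON animal 6 are the livers with the lowest *MXI1* and the highest *BHLHE40* of their groups. The rho with *MXI1* was negative for 8 of the 9 genes and that with *BHLHE40* positive for 8 of the 9. Without HOX animal 1 these counts were 7 and 8, and some of the values were near 0, such as -0.06 for *IMP4* and 0.12 for *URB2* with *MXI1*. *TEX10* was the 1 gene with a positive rho with *MXI1* over 16 livers (0.56). Its rho was 0.84 without HOX animal 1, then the largest of the 9 in size. Over all tested genes, rho was negative with *MXI1* for 49.9% and positive with *BHLHE40* for 47.5%. The 9 genes were listed by the study for a difference between these groups. Most had their highest group values in HOX animal 1 and CON animal 6, so they are not 9 separate results. Both repressors were chosen for lying on opposite sides within groups, so opposite signs with them are a description.

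Markers of the cell types of the fetal liver were also found only through the study's list. A list of 23 erythroid markers had 5 genes with an identifier, *ANK1* (erythrocyte ankyrin), *CDAN1* (codanin 1, needed for normal erythroblast nuclei), *CPOX* (an enzyme of haem synthesis), *EPOR* and *TFRC*. The last 2 are also HIF targets. The remaining 18, among which are the globins, were not analysed here. All 5 were higher in HOX (median log2 fold change 0.67). edgeR called 0 of them (0.0583% of all genes), as did DESeq2 (2.76% of all genes), and nothing is read from these shares. *ANK1* was 143 ± 57.6 CPM in CON and 224 ± 95.5 CPM in HOX (0.64, SE 0.264), *CPOX* 52.2 ± 24.6 and 89.6 ± 34.2 CPM (0.78, SE 0.281), and *CDAN1* 26.7 ± 3.52 and 30.4 ± 6.73 CPM (0.18, SE 0.137). Averaged over the 5 genes, log2 CPM was 5.45 ± 0.478 (range 4.83 to 6.29) in CON and 6.06 ± 0.589 (range 5.23 to 6.84) in HOX. CON animal 6 and HOX animal 1 had the lowest mean of their groups, and CON animal 5 and HOX animal 4 the highest. In a whole liver, more cells of a type and more RNA per cell cannot be told apart. HOX animal 1 was the lowest HOX liver for 4 of the 5 genes, but not for *CPOX* (76.6 CPM). Whether these genes follow erythroid cells alone was not tested.

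The relations of both genes to 5 marker levels in both groups were tested among livers of 1 group, 20 in all, by exact two-sided permutation with Benjamini-Hochberg adjustment. None passed an adjusted *P* of 0.05, and 5 had an unadjusted *P* under 0.05. In HOX, Pearson's *r* of *MXI1* with the erythroid level was 0.82 (exact *P* = 0.0139, adjusted *P* = 0.139, rho 0.75 with exact *P* = 0.0663, *n* = 7). It was 0.71 without HOX animal 1 and 0.43 without the 2 livers farthest from the median erythroid level, so its size rests on the ends of the range. In CON, *r* was 0.64 (exact *P* = 0.0618, adjusted *P* = 0.206, rho 0.55 with exact *P* = 0.133, *n* = 9), and 0.46 without the 2 farthest livers.

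For *BHLHE40*, *r* was negative with all livers included. In HOX, *r* with the erythroid level was -0.78 (exact *P* = 0.0417, adjusted *P* = 0.167, rho -0.68 with exact *P* = 0.110, *n* = 7), -0.64 without HOX animal 1 and -0.66 without the 2 farthest livers. In CON, *r* was -0.49 (exact *P* = 0.180, adjusted *P* = 0.390, rho -0.33 with exact *P* = 0.385, *n* = 9). The CON value rests on CON animal 5, which had the highest erythroid level (6.29) and the lowest *BHLHE40*. Without it *r* was 0.15, and without the 2 farthest livers -0.058. Each of the 5 erythroid genes alone had a positive rho with *MXI1* and a negative rho with *BHLHE40* over the 16 livers, and also without HOX animal 1. Among all tested genes, rho was negative with *MXI1* for 49.9% and positive with *BHLHE40* for 47.5%. The 2 repressors were chosen for lying on opposite sides within groups. Opposite signs with them are therefore a description and not 5 separate results.

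**Figure D4:**
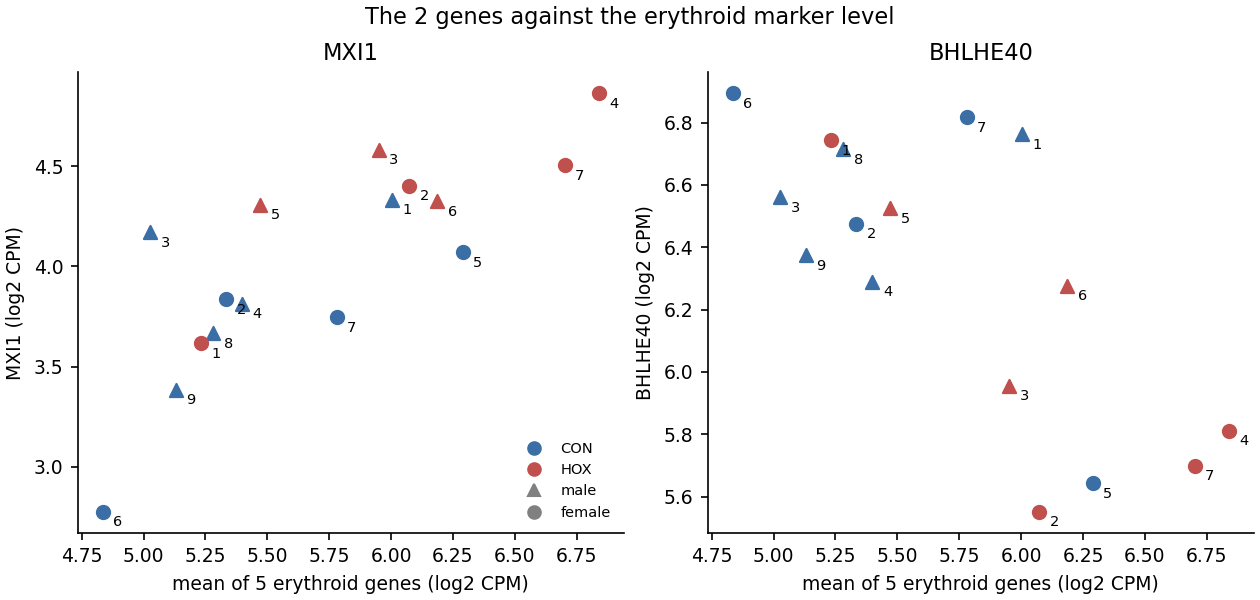
*MXI1* (left) and *BHLHE40* (right), in log2 CPM, against the mean log2 CPM of 5 erythroid marker genes in each liver, with CON in blue, HOX in red, triangles for males, circles for females and numbers for animals. Pearson's *r* is 0.64 in CON and 0.82 in HOX for *MXI1*, and -0.49 and -0.78 for *BHLHE40*. None had an adjusted *P* under 0.05 by exact permutation, and that of *MXI1* in HOX was 0.139. The CON value of *BHLHE40* is 0.15 without CON animal 5, at the lower right of the CON livers.

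With the erythroid level as a covariate in the edgeR model, the log2 fold change of HOX over CON was 0.27 (SE 0.182) for *MXI1* and -0.15 (SE 0.177) for *BHLHE40*, against 0.60 and -0.40 without it. Both kept their sign at a smaller size. The marker genes were themselves listed by the study for a difference between the same groups, and 2 of the 5 are HIF targets. The shares of hypoxia and of erythroid content in the differences of the 2 genes therefore cannot be told apart here.

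As for the erythroid genes, members of the other marker lists were chosen by the study for differing between these groups, so their differences are a description. Of 28 hepatocyte markers, 15 were tested, of which 14 were lower and 1 (*HGFAC*) higher in HOX, with a median log2 fold change of -0.50. edgeR called 0 of the 15 (0.0583% of all genes) and DESeq2 called 10 (2.76% of all genes), and nothing is read from these shares. The largest difference was that of *AFP* (alpha-fetoprotein, a main serum protein of the fetus), with 603 ± 654 CPM in CON and 75.6 ± 41.8 CPM in HOX. Averaged over the 15 genes, log2 CPM was 9.27 ± 0.140 (range 9.04 to 9.53) in CON and 8.62 ± 0.325 (range 7.95 to 9.00) in HOX, so the groups did not overlap, and HOX animal 1 was the lowest. With this level as a covariate, added after the data were seen, the log2 fold change was 1.10 (SE 0.336) for *MXI1* and -0.70 (SE 0.310) for *BHLHE40*. As the level separates the groups, this fit estimates the difference beyond the range where both groups have livers.

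No relation of either gene to the hepatocyte level was detected within groups. In HOX, *r* of *MXI1* with it was 0.73 (exact *P* = 0.130, adjusted *P* = 0.326) and -0.32 without HOX animal 1. That of *BHLHE40* was -0.37 (exact *P* = 0.456, adjusted *P* = 0.585) and 0.72 without it. In CON, *r* was 0.18 for *MXI1* and -0.12 for *BHLHE40* (adjusted *P* = 0.733 for both by exact permutation). *CD163*, a scavenger receptor of Kupffer cells and the 1 of 10 macrophage markers found, was 323 ± 58.1 CPM in CON and 213 ± 83.3 CPM in HOX, with 61.9 CPM in HOX animal 1. Its *r* with *MXI1* in HOX was 0.89 (exact *P* = 0.0268, adjusted *P* = 0.155), but -0.46 without the 2 farthest livers, and rho was 0.43. The *r* of *CD163* with *MXI1* in CON was -0.29, and with *BHLHE40* -0.15 in CON and -0.51 in HOX (adjusted *P* = 0.585, 0.733 and 0.436 by exact permutation).

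Of 11 stellate cell and fibroblast markers, *ASPN* (asporin), *THBS4* (thrombospondin 4) and *TGFBI* (a matrix protein induced by TGF-beta) were found, of which the first 2 were higher and *TGFBI* lower in HOX. Their log2 fold changes were 0.38 (SE 0.116), 1.17 (SE 0.264) and -0.50 (SE 0.215). Their mean level had an *r* of 0.88 with *MXI1* in CON, the relation with the smallest *P* of the 20 tested (exact *P* = 0.00279, adjusted *P* = 0.0559, rho 0.80, *n* = 9), 0.72 without the 2 farthest livers and 0.69 without CON animal 6. In HOX, *r* was 0.56 (exact *P* = 0.195, adjusted *P* = 0.390). *BHLHE40* had *r* of -0.33 in CON and -0.21 in HOX with this level (adjusted *P* = 0.518 and 0.733 by exact permutation). *CD34*, which marks endothelial and blood progenitor cells and was the 1 of 8 such markers found, was 13.7 ± 6.97 CPM in CON and 28.3 ± 12.8 CPM in HOX. Its *r* with *BHLHE40* was -0.73 in CON (exact *P* = 0.0310, adjusted *P* = 0.155) but 0.049 without the 2 farthest livers, and -0.67 in HOX (exact *P* = 0.0927, adjusted *P* = 0.265). With *MXI1* it was 0.42 in both groups (adjusted *P* = 0.436 in CON and 0.518 in HOX by exact permutation). The CON value was -0.047 without CON animal 6 and -0.42 without the 2 farthest livers, and rho was 0.22. The HOX value was 0.68 without the 2 farthest livers, and rho was 0.68.

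The genes most like each repressor were sought among the 428 other tested genes with a symbol, by the rho of deviations from group means over 16 livers. Those most like *MXI1* were *IGSF8*, an immunoglobulin superfamily membrane protein (rho 0.84, and 0.69 without HOX animal 1), *ATOSB* (0.81 and 0.80), *CDAN1* (0.81 and 0.86) and *ANK1* (0.78 and 0.66). The last 2 are members of the erythroid marker list above. Those most opposite to *MXI1* were *DENND1C* (-0.77), *GMPR2*, a guanosine monophosphate reductase (-0.74), *NANS*, the sialic acid synthase (-0.74), and *NOP10* (-0.72), each between -0.74 and -0.67 without HOX animal 1.

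*BHLHE40* was most like *SRA1*, the steroid receptor RNA activator, with a rho of 0.86 with and without HOX animal 1. It was followed by *SSR3*, a subunit of the translocon-associated complex of the endoplasmic reticulum (0.81, and 0.55 without HOX animal 1), *KDELR2*, which returns proteins to that compartment (0.77 and 0.64), and *COX15*, an enzyme of haem A synthesis (0.74 and 0.75). The most opposite were *MFHAS1* (-0.77 and -0.79), *TONSL*, a replication fork repair protein (-0.74 and -0.61), *ZNF646* (-0.73 and -0.60) and *ATOSB* (-0.73 and -0.60). *ATOSB* was thus among the 4 most like *MXI1* and among the 4 most opposite to *BHLHE40*. These genes are a description of the same 16 libraries, and all of them come from the study's list.

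**Figure D5:**
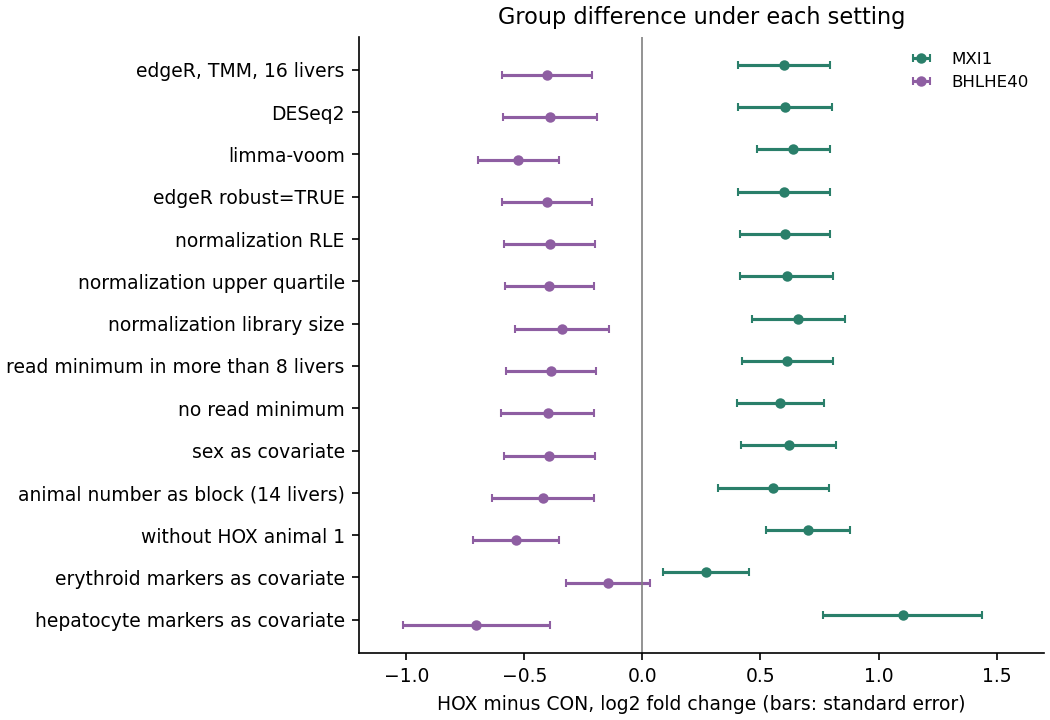
Log2 fold change of HOX over CON for *MXI1* (green) and *BHLHE40* (purple) with its standard error as a bar, under each test, scaling, read minimum and covariate. *MXI1* stays right of 0 and *BHLHE40* left of 0 in all of them, with the smallest sizes under the erythroid covariate (0.27 and -0.15) and the largest under the hepatocyte covariate (1.10 and -0.70).

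The plot of differences by setting shows that tool, scaling and read minimum moved both genes less than the cell type covariates did. Reads from neighbouring genes are a remaining uncertainty, because the use of strand in counting was not given in the sources used here. In the RefSeq annotation of another sheep assembly (ARS-UI_Ramb_v3.0), the span of *MXI1* overlaps that of the protein-coding *SMNDC1* and of a long non-coding RNA, and *BHLHE40* overlaps a long non-coding RNA. How many counted reads such overlaps could add was not tested.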

How the data were processed

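Total RNA of 16 fetal livers was sequenced as mRNA libraries. The authors aligned the reads with STAR 2.7.10b (per the labels' processing notes) to assembly ARS-UI_Ramb_v1.0, and deposited raw read counts for 26478 genes, without normalization or filtering. The counting rule and strand use were not given in the sources used here. Of these genes, 5307 had 0 reads in all livers. Groups and sex came from the labels, and no pair of libraries agreed within counting noise (chi-square per degree of freedom at least 63.2).

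Genes reaching 250 reads in 8 or more livers (8580, holding 97.7% of reads) were fitted in R 4.3.3 with edgeR 4.0.16 (TMM, quasi-likelihood, robust=FALSE, Benjamini-Hochberg, adjusted *P* under 0.15). The threshold follows the study, which used DESeq2 (1.42.0 here, an alternative, as was limma 3.58.1 with voom). The limma-voom fit also weighted each liver by its quality, so it differed from edgeR in more than the tool. DESeq2 ran with its default handling of outliers, which can replace an outlying count of a liver, and so differed in this too. Log2 CPM used a prior count of 2. SEs came from the coefficient and its F statistic. Correlations within groups were tested by exact permutation. Scripts were tested on simulated data, with 200 genes changed by a log2 value of 1 between HOX and CON. There, edgeR recovered 190 with 34 false calls, DESeq2 193 with 85, and limma-voom 186 with 37.

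Symbols came only from the study's list of differentially expressed genes (487 identifiers, 438 symbols, 429 tested). Named were both repressors, every member of the gene lists with an identifier, and for each repressor the 4 genes with the highest and the 4 with the lowest rho. The members and lists were chosen with earlier results of these data known. Alternatives covered tool, scaling, read minimum, covariates, an animal-number block and leaving out each liver. Sequences and coordinates were not used here.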

Additional observations from a re-analysis of the deposited data

Results flagged for a closer look

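*BHLHE40* in CON animal 5 was 49.9 CPM, and the gap to the next CON liver was 0.517 of the group's range of log2 CPM, above Dixon's critical value for 9 samples. Both genes were examined in both groups, and chance flags about 1 in 20 such groups. Without this liver the log2 fold change of *BHLHE40* was -0.47 (SE 0.171), against -0.40 with it. *MXI1* in HOX animal 1 had a gap of 0.554 of its group's range, just under the critical value for 7 samples.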

How the results depend on the processing

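The directions of *MXI1* and *BHLHE40* between HOX and CON were the same under every alternative run, and the size of *MXI1* moved by more than the spread between livers in 1, the hepatocyte covariate (1.10), a setting chosen after seeing the data. The number of genes called, 5 in the main edgeR test, depended on the tool and the setting. It was 237 with DESeq2, 523 with DESeq2 without HOX animal 1, 146 with limma-voom, 1 with library size scaling, 1 without a read minimum, 1 with the erythroid covariate and 611 with the hepatocyte covariate. Leaving out each liver gave 1 to 47 genes, with 12 without HOX animal 1, 10 without CON animal 6 and 47 without HOX animal 5. For sex, DESeq2 called 7 genes and leave-one-out gave 1 to 2. For the interaction, DESeq2 called 6 and leave-one-out gave 0 to 3 (3 without HOX animal 4). The cause was not tested. Leaving out each liver moved *r* of the 2 genes between -0.53 and -0.048 in CON and between -0.86 and -0.47 in HOX.

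With the animal number as a replicate block (animals 1 to 7 of each group), 0 genes were called against 1 for the same livers without the block, and the log2 fold changes were 0.55 for *MXI1* and -0.42 for *BHLHE40*. The labels do not say that equal numbers pair livers of both groups, and a shared batch behind the numbers was not tested. Correlations between same-numbered livers ranged from -0.314 to 0.153, and 1 of 7 correlated best with its own number.

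The groups of 9 and 7 livers, the read depth of *MXI1* and the symbols known only through the study's list limit these values. Most HIF, clock and MYC network genes were not analysed here.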
